A study of Mus musculus with 10 samples.

Results

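The 34 genes examined here are known from brown and white adipocytes and cover heat production, the transcription factors of fat cells, secreted hormones, lipid droplets and lipolysis, uptake, and fat synthesis. They were chosen by name as genes of perivascular fat and of the heat-producing programme linked to PRDM16, and all 34 were found among the 55426 rows of the deposited TPM table. TPM is the share of a gene in the transcripts of a sample, corrected for transcript length and scaled to the same total in every aorta. With a mean of at least 0.5 TPM over the 6 aortas, 33 of the 34 were tested, and *Elovl3* was not.

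RNA-Seq was performed on 3 Control thoracic aortas (Prdm16f/f) and 3 Prdm16SMKO thoracic aortas (Prdm16f/f, SMMHC-CreERT2). Both groups carried the floxed *Prdm16* alleles, and the Prdm16SMKO group also carried a Cre under the *Myh11* promoter. This Cre is inducible by tamoxifen, and the deletion was aimed at smooth muscle. The level of *Prdm16* in adipocytes of these mice is not given in the sources used here. The transgene lies on the Y chromosome, so Prdm16SMKO mice of this line are male. The methods describe deletion by oral tamoxifen in adult mice, followed by a washout. Whether these controls received tamoxifen, the exact age of the mice at harvest, the time of day, and whether the surrounding fat was stripped from these aortas are not given in the sources used here. The labels number the aortas within a group without saying that each came from a separate mouse, so *P* values measure the spread between these samples. PRDM16 binding was mapped by ChIP-Seq in wild-type primary vascular fibroblasts, a cell type other than the adipocyte, which received a lentivirus for PRDM16 with a Flag tag, or the vector, over 48 hours and were then kept in puromycin (2 ug/mL) during 1 week. Each condition has 1 anti-Flag library and therefore no replicate check.

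Brown adipocytes burn fatty acids and release the energy as heat through UCP1, a proton channel of the inner mitochondrial membrane, whereas white adipocytes store triglyceride in a single large droplet and secrete hormones such as adiponectin and leptin. PRDM16 is a zinc-finger transcriptional coregulator that is known for directing precursor cells to the brown adipocyte fate, in which it acts with PPARγ, C/EBP factors, and PGC-1 coactivators. The thoracic aorta of the mouse is surrounded by perivascular fat of the brown type, and smooth muscle cells, the cells deleted here, are also a site of *Prdm16* expression.

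*Prdm16* itself (ENSMUSG00000039410), the targeted gene, was at 56.07, 47.56, and 40.28 TPM in Control 1, 2, and 3 and at 23.31, 33.32, and 23.42 TPM in Prdm16SMKO 1, 2, and 3. All 3 Prdm16SMKO aortas lay below all 3 controls, with 55.6% of the control mean left, and the log2 fold change (Prdm16SMKO minus Control, on log2(TPM + 0.1)) was −0.85 with an SE of 0.18 (adjusted *P* = 0.0725, limma). A further 8 adipocyte markers that are not among the 34 genes, such as *Adig* and *Aqp7*, were detected in every aorta, with summed levels of 83.0 to 301 TPM in the controls and 73.3 to 236 TPM in the Prdm16SMKO aortas. Their mean log2 level was 3.15 ± 0.83 (SD, n = 3) in the controls and 2.86 ± 0.67 (SD, n = 3) in the Prdm16SMKO aortas, a difference of −0.29 that was smaller than the spread within either group (exact permutation test, two-sided *P* = 0.6, smallest possible 0.1). The 8 smooth muscle markers summed to 21018.7 to 24567.7 TPM in the controls and to 14076.3 to 18175.9 TPM in the Prdm16SMKO aortas, without overlap. They were the most abundant of the 8 marker lists in every aorta. *Acta2* weighed most in this sum, with means of 11568.8 and 7511.9 TPM. Of the 8 markers, 4 were lower in every Prdm16SMKO aorta, a pattern of 14.9% of all genes tested. *Myh11*, *Smtn*, and *Synpo2* overlapped between the groups. *Des* was higher in every Prdm16SMKO aorta, at 67.87 to 73.12 against 46.08 to 63.10 TPM. In such bulk samples, fewer cells of a type and less RNA per cell cannot be told apart.

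None of the 33 adipocyte genes tested passed an adjusted *P* of 0.05 between Prdm16SMKO and Control aortas in limma, where 168 of 15668 genes (1.07%) did. Of the 33, 2 genes (*Dio2* and *Plin4*) had an unadjusted *P* under 0.05, compared with 12.7% of all genes tested. The log2 fold change was negative for 21 genes and positive for 12, with a median of −0.12, the same as the median of −0.12 over all genes tested. Of the 33, 1 gene (*Dio2*) was lower in every Prdm16SMKO aorta than in every control, a pattern of 14.9% of all genes tested, and none was higher in every Prdm16SMKO aorta, a pattern of 4.08%. These counts give no excess of changed genes among the adipocyte genes over the rest of the transcriptome. The intervals were wide, since the 95% CI reached past a 2-fold difference in at least 1 direction for 25 of the 33 genes and stayed within 2-fold for 8.

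**Figure D1:**
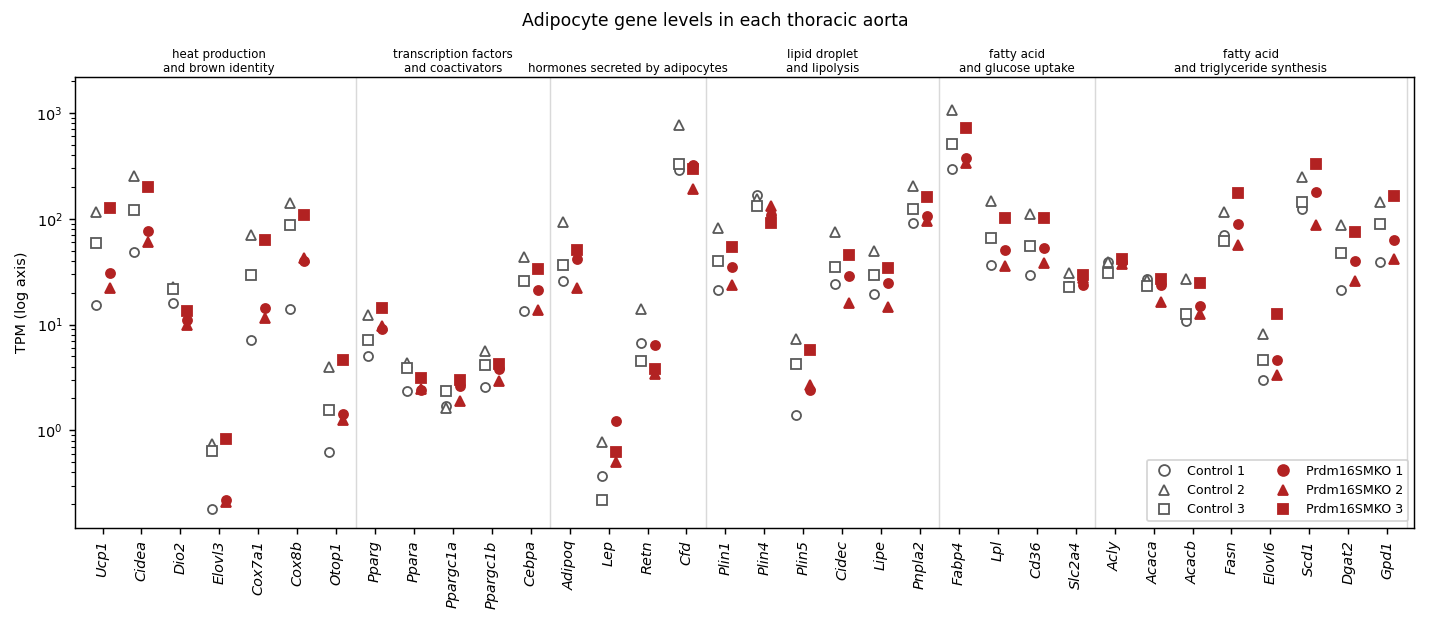
TPM of the 34 adipocyte genes in each of the 6 thoracic aortas (log axis), grouped by role, with open grey symbols for Control and filled red symbols for Prdm16SMKO. The circle, triangle, and square are aortas 1, 2, and 3 of a group, and Control 2 and Prdm16SMKO 3 are the 2 highest aortas for most genes.

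Among the genes of heat production and brown identity, *Ucp1* (ENSMUSG00000031710, chr8:83290352-83298452 on GRCm38) was at 15.34, 116.80, and 59.43 TPM in the controls and at 30.50, 22.35, and 127.23 TPM in the Prdm16SMKO aortas. The groups overlapped over nearly their whole range, with the lowest value in Control 1 and the highest in Prdm16SMKO 3, and the log2 fold change was −0.10 with a 95% CI of −1.87 to 1.67 (adjusted *P* = 0.976). *Cidea*, a lipid droplet protein that marks brown adipocytes, was also lowest in Control 1 but highest in Control 2, with 48.00, 251.14, and 121.36 TPM in the controls and 76.92, 59.75, and 200.06 TPM in the Prdm16SMKO aortas. *Cox7a1* and *Cox8b*, subunits of cytochrome c oxidase that brown fat shares with striated muscle, had the widest spread among the 34 genes, and *Cox7a1* went from 7.07 TPM in Control 1 to 70.98 TPM in Control 2. *Cox8b* was at 14.15, 141.82, and 86.41 TPM in the controls and at 39.71, 42.88, and 107.59 TPM in the Prdm16SMKO aortas, so that 1 group held both the lowest and the highest value. Skeletal muscle markers were low in all aortas, at a summed 4.79 to 14.9 TPM, and only 3 of the 8 passed the filter. *Otop1*, a proton channel also found in brown fat, was at 0.62 to 4 TPM in the controls and 1.25 to 4.62 TPM in the Prdm16SMKO aortas. *Elovl3*, an elongase of very long chain fatty acids induced by cold in brown fat, lay between 0.18 and 0.83 TPM and was left untested.

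*Dio2* (ENSMUSG00000007682, chr12:90724552-90738438), the deiodinase that makes active thyroid hormone inside brown adipocytes and other cells, stood apart from the other heat production genes in its order over the aortas. It was at 16.11, 22.79, and 21.86 TPM in the controls and at 11.09, 9.88, and 13.33 TPM in the Prdm16SMKO aortas. Every control lay above every Prdm16SMKO aorta, and the highest aorta was only 2.31-fold over the lowest. The log2 fold change was −0.81 with an SE of 0.18 (95% CI −1.22 to −0.40), which did not pass the adjustment over all genes (adjusted *P* = 0.0845, limma). With protein-coding genes only, the adjusted *P* was 0.0377, and over all alternatives it ranged from 0.0345 to 0.266 with the same sign. The smooth muscle marker sum, though not each of its markers, was likewise lower in every Prdm16SMKO aorta, and its part in the *Dio2* difference was not tested.

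The transcription factors and coactivators spanned 1.85-fold to 3.28-fold between the highest and the lowest aorta, and none passed the test. *Pparg* (ENSMUSG00000000440, chr6:115360951-115490399), the master regulator of adipogenesis, was at 5.03, 12.32, and 7.17 TPM in the controls and at 9.05, 9.63, and 14.44 TPM in the Prdm16SMKO aortas. Its mean was 8.17 ± 3.75 TPM against 11 ± 2.96 TPM (SD, n = 3 each), with a log2 fold change of 0.49, an SE of 0.32, and an adjusted *P* of 0.553. The log2 fold change of *Pparg* was 0.20 without Control 1 and 0.84 without Control 2. *Cebpa*, which maintains the mature adipocyte state together with PPARγ, was at 13.37, 43.92, and 26.01 TPM in the controls and at 21.02, 13.65, and 33.24 TPM in the Prdm16SMKO aortas, again with Control 2 and Prdm16SMKO 3 on top. *Ppargc1a*, the PGC-1α coactivator of mitochondrial biogenesis, was low, at 1.62 to 2.36 TPM in the controls and 1.91 to 3.00 TPM in the Prdm16SMKO aortas, and was one of the genes for which Control 2 was not high. *Ppargc1b* ranged from 2.58 to 5.62 TPM and *Ppara*, the nuclear receptor that drives fatty acid oxidation, from 2.36 to 4.36 TPM, both with overlapping groups.

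The hormone genes had the most negative median of the 6 roles, at −0.50 on the log2 scale for 4 genes, and none of them passed the test. *Adipoq* (ENSMUSG00000022878), which encodes adiponectin, was at 25.78, 93.92, and 36.67 TPM in the controls and at 41.54, 22.02, and 50.56 TPM in the Prdm16SMKO aortas. *Cfd*, which encodes the complement protease adipsin and was the second most abundant of the 34 genes after *Fabp4*, was at 288.58, 777.38, and 330.70 TPM in the controls and at 322.63, 189.56, and 294.20 TPM in the Prdm16SMKO aortas. Its log2 fold change was −0.68 with an SE of 0.35 (adjusted *P* = 0.463), and without Control 2 it was −0.24. *Retn*, which encodes resistin, had a similar log2 fold change of −0.77 (SE 0.40) and a highest value of 14.00 TPM, also in Control 2, without which the log2 fold change was −0.33. *Lep*, the leptin gene, was near the limit of the filter, at 0.22 to 0.77 TPM in the controls and 0.50 to 1.22 TPM in the Prdm16SMKO aortas.

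All 6 genes of the lipid droplet and lipolysis group had a negative log2 fold change, with a median of −0.30, and none passed the test. *Plin1*, the perilipin that coats the droplet of mature adipocytes, was at 21.42, 81.49, and 40.29 TPM in the controls and at 34.91, 23.44, and 54.34 TPM in the Prdm16SMKO aortas. *Plin4* (ENSMUSG00000002831), a perilipin of small droplets that other tissues also express, ran differently, at 168.25, 155.30, and 131.16 TPM in the controls and at 108.18, 132.96, and 90.73 TPM in the Prdm16SMKO aortas. Prdm16SMKO 3, among the highest for most adipocyte genes, had the lowest *Plin4*, and Prdm16SMKO 2 overlapped the controls by a narrow margin. The smooth muscle markers except *Des* were likewise highest in Control 1 and lowest in Prdm16SMKO 3. Their part in the *Plin4* difference was not tested. The log2 fold change of *Plin4* was −0.46 with an SE of 0.16 (adjusted *P* = 0.261, limma). In the authors' published list of called genes with a PRDM16 promoter peak, *Plin4* is among the lower ones. Whether this gene is called thus depends on the analysis. The lipases *Lipe* and *Pnpla2*, which release fatty acids from the droplet, were at 19.49 to 49.33 and 90.88 to 203.90 TPM in the controls and at 14.79 to 34.34 and 95.77 to 162.33 TPM in the Prdm16SMKO aortas. *Cidec*, which fuses droplets, and *Plin5*, which ties droplets to mitochondria, spanned 4.68-fold and 5.19-fold over the aortas with overlapping groups.

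In the group of fatty acid and glucose uptake, *Fabp4* (ENSMUSG00000062515), the fatty acid binding protein of adipocytes, was the most abundant of the 34 genes. It was at 294.21, 1078.03, and 506.97 TPM in the controls and at 373.26, 336.53, and 721.55 TPM in the Prdm16SMKO aortas (log2 fold change −0.28, SE 0.44, adjusted *P* = 0.84). *Lpl*, lipoprotein lipase, and *Cd36*, a fatty acid transporter, had the same 2 aortas on top, with Control 2 highest at 148.47 and 110.29 TPM and Prdm16SMKO 3 next at 102.32 and 102.71 TPM. *Slc2a4*, the insulin-responsive glucose transporter GLUT4 that muscle and fat share, was nearly level, at 22.77 to 30.66 TPM in the controls and 23.90 to 29.25 TPM in the Prdm16SMKO aortas. Its 95% CI of −0.27 to 0.43 was the second narrowest after that of *Acly*.

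The 8 genes of fatty acid and triglyceride synthesis had a median log2 fold change of 0.09, with 5 positive and 3 negative values and no gene past the test. *Fasn* (ENSMUSG00000025153), fatty acid synthase, was at 69.72, 115.12, and 61.01 TPM in the controls and at 89.37, 56.45, and 175.21 TPM in the Prdm16SMKO aortas. *Scd1*, the stearoyl-CoA desaturase, was at 122.94, 245.95, and 145.08 TPM in the controls and at 178.71, 87.12, and 328.44 TPM in the Prdm16SMKO aortas. For both genes Prdm16SMKO 3 was highest and Prdm16SMKO 2 lowest, so the widest gap lay between 2 aortas of the same genotype. *Elovl6* and *Gpd1*, an elongase and the enzyme that supplies glycerol 3-phosphate, also peaked in Prdm16SMKO 3, at 12.59 and 164.78 TPM. *Acly* and *Acaca*, which make cytosolic acetyl-CoA and malonyl-CoA, varied little, at 30.54 to 41.76 and 16.19 to 27.08 TPM over the 6 aortas, and the 95% CI of *Acly* was −0.18 to 0.43. *Acacb* and *Dgat2*, the mitochondrial acetyl-CoA carboxylase and a late enzyme of triglyceride synthesis, had log2 fold changes of 0.10 and −0.06.

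**Figure D2:**
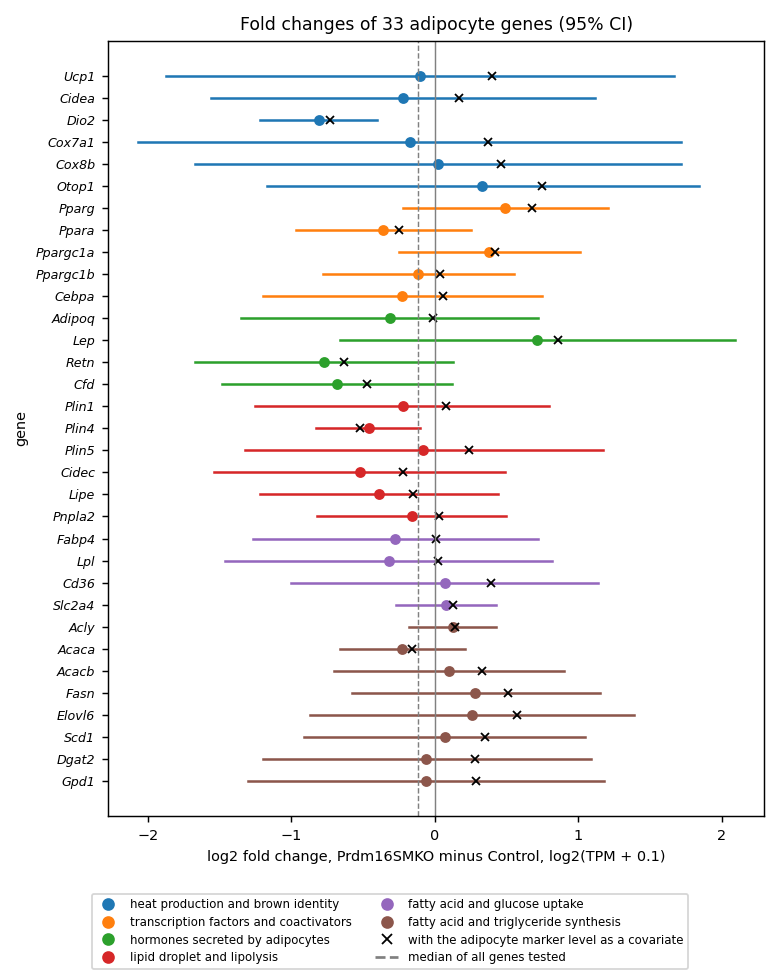
Log2 fold change of the 33 adipocyte genes tested (Prdm16SMKO minus Control, limma on log2(TPM + 0.1), points) with 95% CIs (bars), coloured by role, and the estimate with the adipocyte marker level as a covariate (crosses). Only the bars of Dio2 and Plin4 lie clear of 0, the dashed line marks the median of −0.12 over all genes tested, and most crosses lie to the right of their points.

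The main variation of these genes was between aortas of the same group. The highest aorta was a median of 3.77-fold over the lowest for the 33 genes, against 1.65-fold over all genes tested, and it was at least 3-fold over the lowest for 22 of the 33, against 18.2% of all genes tested. Control 2 and Prdm16SMKO 3 were the 2 highest aortas for 24 of the 33 genes, compared with 4.32% of all genes tested. At the other end, Control 1 and Prdm16SMKO 2 were the 2 lowest for 20 of the 33, compared with 2.16% of all genes tested. This order of the aortas was seen in the data and was not set in advance. The 34 genes together summed to 1489.7, 4192.6, and 2164.1 TPM in the controls and to 1842.6, 1398.3, and 3122.7 TPM in the Prdm16SMKO aortas, or 0.149% to 0.419% and 0.140% to 0.312% of all TPM. The median SE of the log2 fold change was 0.43 for the 33 genes and 0.20 for all genes tested, so differences of ordinary size were less detectable in adipocyte genes than elsewhere.

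The 8 adipocyte markers outside the list moved in the same order, with Control 2 highest at a summed 301 TPM and Prdm16SMKO 3 next at 236 TPM, and 7 of the 8 had these 2 aortas on top. Of 23 genes of fatty acid oxidation, 19 had them on top as well. The share of TPM from mitochondrially encoded genes was also highest in these 2 aortas, at 22.2% and 26.5%, against 14.7% to 20.2% in the other 4. None of the tested smooth muscle, fibroblast, macrophage, skeletal muscle, red blood cell, or nerve sheath markers had this pair on top, and 3 of the 8 endothelial markers did. The genes of the list that did not follow it were *Dio2*, *Ppara*, *Ppargc1a*, *Lep*, *Retn*, *Cfd*, *Plin4*, *Acly*, and *Acaca*.

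**Figure D3:**
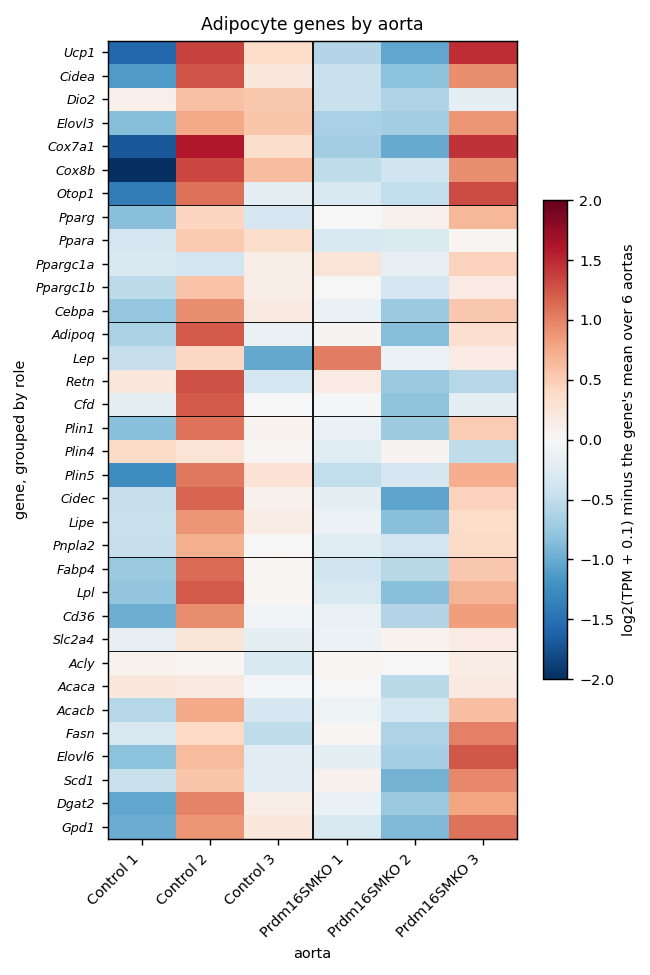
Log2(TPM + 0.1) of each of the 34 adipocyte genes minus its mean over the 6 aortas (colour, red above and blue below the mean, with the scale ending at 2 in either direction), with genes in rows by role and aortas in columns. Control 2 and Prdm16SMKO 3 are red and Control 1 and Prdm16SMKO 2 blue for most rows, while Dio2 and Plin4 depart from this order.

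The levels of *Ucp1*, *Cidea*, and *Cfd* relative to *Adipoq* also differed within groups. Whether these ratios follow the share of brown and white adipocytes was not tested. The ratio of *Ucp1* to *Adipoq* TPM was 0.595, 1.24, and 1.62 in the controls and 0.734, 1.01, and 2.52 in the Prdm16SMKO aortas. That of *Cidea* to *Adipoq* was 1.86, 2.67, and 3.31 in the controls and 1.85, 2.71, and 3.96 in the Prdm16SMKO aortas. Both ratios overlapped between the groups, and for both the highest value was in Prdm16SMKO 3, where *Ucp1* was above that in Control 2 while *Adipoq* was lower. The ratio of *Cfd* to *Adipoq* went from 8.28 to 11.2 in the controls and from 5.82 to 8.61 in the Prdm16SMKO aortas.

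With the mean log2 level of the 8 adipocyte markers as a covariate, a fit that was added after the data were seen, 1 of the 33 genes passed the test, against 2.44% of all genes tested. That gene was *Dio2*, with a log2 fold change of −0.73 (SE 0.13, adjusted *P* = 0.0345, limma). The sign turned from negative to positive for 12 genes, *Ucp1* among them at 0.40 (SE 0.33). For *Adipoq* the estimate was −0.01 with an SE of 0.13, and for *Fabp4* it was 0.01 with an SE of 0.16, so these 2 genes lay close to the level of the other adipocyte markers in both groups. *Pparg* had a log2 fold change of 0.68 (SE 0.18, adjusted *P* = 0.108) and *Plin4* of −0.52 (SE 0.14, adjusted *P* = 0.109). A covariate measured on the same aortas takes up differences between the groups in the amount of adipocyte RNA and leaves 1 degree of freedom less.

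The direction of most other genes turned on single aortas. Without Control 2, the median log2 fold change of the 33 genes was 0.27 and 25 were positive, whereas without Control 1 the median was −0.59 and 27 were negative. Without Prdm16SMKO 3 the median was −0.46 and without Prdm16SMKO 2 it was 0.09. No gene of the 33 passed the test in any of these fits. For *Ucp1*, the log2 fold change went from −0.91 to 0.55 when 1 aorta or both of the highest were left out, and for *Fabp4* from −0.72 to 0.22.

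A further 6 lists of related genes were read in the same fit, and no gene of them passed the test. In the authors' published list of called genes with a PRDM16 promoter peak, *Zfp516* is lower and *Npr3* and *Lpin2* are higher. Of the other brown and beige adipocyte genes, 25 of 31 were tested, with 17 negative and 8 positive log2 fold changes. *Tmem26*, a surface marker of beige cells, was at 1.47 to 2.04 TPM in the controls and 0.75 to 1.36 TPM in the Prdm16SMKO aortas without overlap, with an adjusted *P* of 0.369. Of the 25 tested, 2 were lower and 2 were higher in every Prdm16SMKO aorta, patterns of 14.9% and 4.08% of all genes tested. *Nrg4*, a hormone of brown adipocytes, had the largest positive value of those above 1 TPM, 0.75 (SE 0.57), and its 2 highest aortas were again Prdm16SMKO 3 at 11.59 TPM and Control 2 at 9.94 TPM, and without Control 1 it was 0.24 and without Control 2 1.43. Of the 15 other genes typical of adipocytes that were tested, 12 were negative, and the 8 adipocyte markers described above are among these 15. *Adrb3* is also in the brown and beige list, and *Cpt1b* is in that list and among the oxidation genes. Of those above 1 TPM, *Cyp2e1* at −1.11 (SE 0.37, adjusted *P* = 0.247) and *Nnat* at −0.84 (SE 0.45) were the most negative, and without Control 2 they were at −0.72 and −0.48.

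The adipogenic regulators showed little of the order over the aortas, with 1 of 21 tested genes having Control 2 and Prdm16SMKO 3 on top. Their largest differences were −0.55 (SE 0.21) for *Stat5a* and −0.42 (SE 0.23) for *Zfp423*, the zinc-finger regulator of preadipocytes. Among the other lipid droplet genes, *Hilpda*, an inhibitor of lipolysis, was higher in every Prdm16SMKO aorta, at 4.94 to 5.35 TPM against 2.82 to 4.04 TPM. *Mgll*, the lipase that splits monoglycerides, was lower in every Prdm16SMKO aorta, at 54.24 to 64.98 TPM against 71.61 to 92.12 TPM (adjusted *P* = 0.282 and 0.235). Of the 11 lipid droplet genes tested in this list, 2 were lower and 1 was higher in every Prdm16SMKO aorta, patterns of 14.9% and 4.08% of all genes tested. Of the 23 other synthesis genes 18 were negative, with *Insig1* at −0.69 (SE 0.31) and *Fads2* at −0.46 (SE 0.17), and of the 23 oxidation genes 20 were negative, with *Ehhadh* at −0.57 (SE 0.31). The median over all genes tested was itself −0.12.

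PRDM16 Flag peaks were next placed relative to the same genes. Of the 34 genes, 9 (26.5%) had a peak whose centre lay within 2 kb of a TSS of a curated RefSeq transcript, compared with 29.1% of all 21000 protein-coding genes and 43.8% of the genes tested in the aorta. The share among the 34 genes was thus not above that of genes in general. Of the further lists, 18 of 23 other synthesis genes and 15 of 23 adipogenic regulators had a promoter peak. The counts were 10 of 31 other brown and beige genes, 4 of 18 other genes typical of adipocytes, 3 of 13 other lipid droplet genes, and 9 of 23 oxidation genes. The 9 of the 34 genes were *Cidea*, *Pparg*, *Ppargc1b*, *Cebpa*, *Plin4*, *Slc2a4*, *Acly*, *Fasn*, and *Elovl6*. By role, 3 of the 5 transcription factors and coactivators and 3 of the 8 synthesis genes had a promoter peak, but 1 of the 7 heat production genes, 1 of the 6 lipid droplet genes, 1 of the 4 uptake genes, and none of the 4 hormone genes. The vector Flag list, with 67 peaks against 11271, had none at the 34 genes.

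The peaks lay mostly just downstream of the TSS, as 7 of the 9 did. The peak of *Fasn* was the strongest, with a fold enrichment of 9.67 over the local background and a −log10 *q* of 17.9, above 96.4% of all peaks, and its centre lay 431 bp downstream of the TSS (chr11:120823650-120824582). That of *Elovl6* came next, at 7.03-fold (chr3:129533404-129534393), 1512 bp downstream in an intron, where the TSS of *Gm35986* was as near, at 1510 bp. The peaks of *Cidea*, *Pparg*, *Ppargc1b*, *Cebpa*, *Plin4*, *Slc2a4*, and *Acly* lay between 4.22 and 5.53-fold, and the median of the 9 was 4.83, against 5.27 over all peaks. *Pparg* had a wide peak of 1387 bp (chr6:115360829-115362215) in which the TSS lay, and *Cebpa*, a gene of 1 exon, had one of 1271 bp (chr7:35119388-35120658) inside the gene. At *Cidea* and *Ppargc1b* the peak centre was 166 bp downstream and 54 bp upstream of the TSS.

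**Figure D4:**
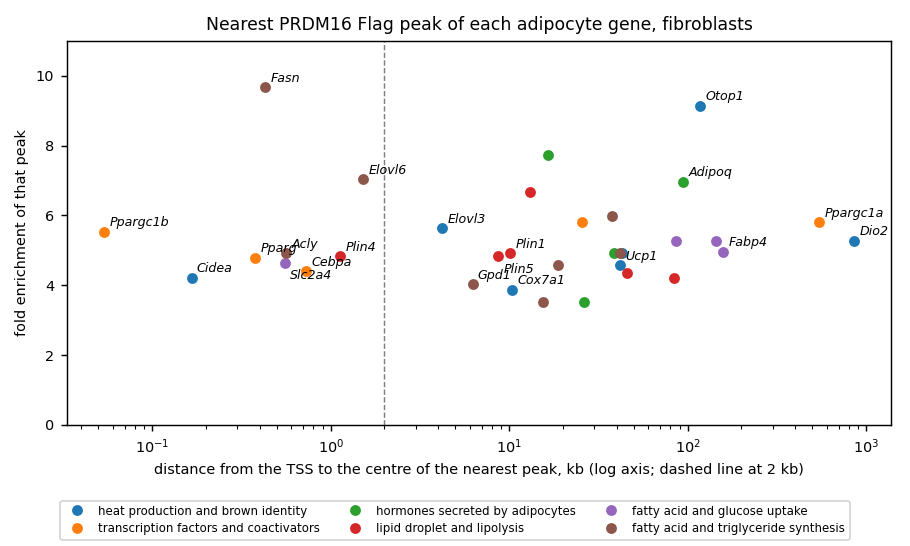
Distance from the TSS of each of the 34 adipocyte genes to the centre of the nearest PRDM16 Flag peak in fibroblasts (kb, log axis) against the fold enrichment of that peak, coloured by role. The 9 genes with a promoter peak lie left of the dashed line at 2 kb, with Fasn highest at 9.67-fold, and Ucp1, Adipoq, Fabp4, and Dio2 lie far to the right. The peak of Ppargc1a, 546 kb from its curated TSSs, is inside the longer span of that gene.

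The other 25 genes had their nearest peak 4.19 to 851 kb away, with a median of 38.9 kb, and for 17 of them it was within 50 kb. *Elovl3* was the nearest of these, with a peak 4.19 kb downstream of its TSS and beyond the end of the gene, and *Gpd1* had one 6.23 kb downstream inside the gene. The peak at *Plin4* was also the nearest to *Plin5*, its neighbour on chromosome 17, at 8.64 kb. *Ucp1* had its nearest peak 41.9 kb away, beside the start of *Elmod2*. For *Adipoq*, *Fabp4*, and *Dio2* the distance was 94.5, 158, and 851 kb. *Ppargc1a* had its nearest peak (chr5:52113299-52113719) 546 kb upstream of its curated TSSs, but inside an intron of the longer gene span that RefSeq gives, which ends at 52115853. *Acaca* likewise had its nearest peak in an intron, 15.4 kb upstream of its curated TSS. *Dio2*, with the smallest *P* of the 33 genes in the aorta, was the one farthest from a PRDM16 peak in fibroblasts. Of the 9 genes with a promoter peak, *Plin4* alone had an unadjusted *P* under 0.05 in limma, compared with 12.7% of all genes tested. The peaks come from fibroblasts that received PRDM16, and whether they bear on levels in the aorta was not tested.

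Sequences at the summits of 5 of these peaks are shown with CG dinucleotides in capitals, because the peaks lay at GC-rich stretches. Each is 151 bases centred on the summit and read along the strand of the gene, from the GRCm38 genome.
Pparg summit (chr6:115361724-115361874, plus strand): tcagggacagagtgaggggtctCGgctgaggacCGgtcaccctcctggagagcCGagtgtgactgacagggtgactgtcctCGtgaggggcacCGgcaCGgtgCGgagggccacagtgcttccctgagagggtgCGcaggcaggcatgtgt
Elovl6 summit (chr3:129533624-129533774, plus strand): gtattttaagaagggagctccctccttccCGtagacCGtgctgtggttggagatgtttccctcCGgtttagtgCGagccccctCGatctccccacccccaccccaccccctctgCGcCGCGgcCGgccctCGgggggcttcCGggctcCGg
Acly summit (chr11:100527401-100527551, minus strand): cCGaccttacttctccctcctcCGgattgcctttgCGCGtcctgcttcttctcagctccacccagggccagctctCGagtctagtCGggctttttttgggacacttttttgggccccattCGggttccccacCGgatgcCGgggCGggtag
Slc2a4 summit (chr11:69948620-69948770, minus strand): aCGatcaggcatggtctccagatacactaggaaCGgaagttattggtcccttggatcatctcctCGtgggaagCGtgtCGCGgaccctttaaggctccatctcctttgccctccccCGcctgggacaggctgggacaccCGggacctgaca
Plin4 summit (chr17:56108461-56108611, minus strand): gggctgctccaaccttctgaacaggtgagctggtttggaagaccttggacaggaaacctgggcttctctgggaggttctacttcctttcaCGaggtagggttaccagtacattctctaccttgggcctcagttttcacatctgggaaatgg
They hold 8, 12, 10, 8, and 1 CG dinucleotides, against a median of 9 over 11258 such windows at PRDM16 peaks. The GC content was 66.2%, 67.5%, 60.9%, 58.9%, and 51.7%, against a median of 63.6%. The window at *Plin4*, 1246 bp downstream of its TSS and with 24 of its bases in an exon, was the poorest in CG of the 9.

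The promoters of the genes without a peak tended to be poorer in CG, though the ranges overlapped. RefSeq promoter sequences on GRCm38.p6 were matched for 6 of the 9 genes with a promoter peak and 19 of the 25 without, each with 250 bases before and 50 after the TSS. The observed over expected CG ratio had a median of 0.568 (0.221 to 1.09) in the former and 0.259 (0 to 0.736) in the latter. It exceeded 0.6 in 3 of 6 and 1 of 19. Over all protein-coding promoters, it exceeded 0.6 in 82.9% of those with a peak within 2 kb and in 38.9% of those without, so the adipocyte genes were below both. *Fasn* had the highest ratio of the matched genes with a peak, at 1.09, and *Adipoq* the lowest of the others, at 0. Promoters of 3 genes without a near peak are shown from 250 bases before to 30 after the TSS, as examples of a promoter with many CG (*Ucp1*), none (*Adipoq*), and few (*Dio2*).
Ucp1 promoter (chr8:83290098-83290377, plus strand): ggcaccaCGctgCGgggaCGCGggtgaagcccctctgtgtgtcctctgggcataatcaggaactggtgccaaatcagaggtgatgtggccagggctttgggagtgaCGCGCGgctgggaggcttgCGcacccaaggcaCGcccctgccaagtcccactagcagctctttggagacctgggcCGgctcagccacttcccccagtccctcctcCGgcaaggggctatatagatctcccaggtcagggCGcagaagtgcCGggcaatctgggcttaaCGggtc
Adipoq promoter (chr16:23146286-23146565, plus strand): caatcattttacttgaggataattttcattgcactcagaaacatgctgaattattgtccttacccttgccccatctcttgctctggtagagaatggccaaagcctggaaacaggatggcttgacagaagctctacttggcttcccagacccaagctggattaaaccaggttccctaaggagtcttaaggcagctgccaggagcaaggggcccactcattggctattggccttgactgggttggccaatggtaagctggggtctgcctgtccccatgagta
Dio2 promoter (chr12:90739009-90739288, minus strand): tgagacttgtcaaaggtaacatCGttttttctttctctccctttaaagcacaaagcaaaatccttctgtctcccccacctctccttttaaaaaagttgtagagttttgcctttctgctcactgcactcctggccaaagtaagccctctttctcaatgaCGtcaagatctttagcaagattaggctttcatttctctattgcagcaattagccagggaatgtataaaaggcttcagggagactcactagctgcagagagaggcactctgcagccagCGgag
These stretches hold 14, 0, and 3 CG dinucleotides at a GC content of 64.3%, 49.6%, and 44.3%. The CG ratio of the *Ucp1* promoter was 0.478 and that of *Dio2* 0.202, and no peak lay within 2 kb of either.

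Motifs of adipocyte factors were searched on both strands in the 151-base windows. The PPAR:RXR direct repeat, searched as AGGNCA followed by any base and the same letters again, was found at none of the 9 summits and in 0.187% of all peak windows, and the C/EBP motif (TTGCNNAA) at none and in 2.98%. The EBF motif (CCCNNGGG) was found in the window of *Elovl6* and in 14.9% of all windows, and CCAAT, the NF-Y motif, in that of *Slc2a4* and in 8.15%. The GC box (GGGCGG) was found at *Acly* and *Fasn* and in 28.1% of all windows, and TCACNCCA, a motif of the SREBP factors that drive lipid synthesis, at none of the 9 and in 2.02%. A match or its absence says only which letters stand in these windows.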

How the data were processed

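Thoracic aorta RNA-Seq (3 Control, 3 Prdm16SMKO) and fibroblast ChIP-Seq peaks (PRDM16 and vector, 1 Flag library each) were used, grouped by sample titles. The aorta columns of the table are headed WT and KO, and these were read as Control and Prdm16SMKO. The authors deposited TPM, which the submitters' processing notes link to STAR 2.7.8a and RSEM 1.3.3 on GRCm38. TPM keep no counts, so depth is unknown here. The deposited peak lists hold the fold enrichment, a ratio over local background, with −log10 *P* and −log10 *q*, all computed by the authors with MACS2, and the list reached a *q* of 0.0483. The MACS2 control library is not given in the sources used here, and the IgG libraries were not analysed here.

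Differences were tested with limma 3.58.1 in R 4.3.3 (lmFit, eBayes with trend) on log2(TPM + 0.1), for genes whose TPM averaged 0.5 or more over the aortas, two-sided, with Benjamini-Hochberg adjustment over all 15668 genes tested and a threshold of 0.05. The procedure was checked on simulated data. Peaks were placed by centre relative to curated RefSeq TSSs on GRCm38.p6, and gene coordinates are those of GENCODE vM21. The genes and lists were chosen with earlier results of these data known. All 34 genes were reported, and from each further list the 2 tested genes with an average of 1 TPM or more and the largest log2 fold change in either direction, of which 1 gene is not reported here. Alternatives were other pseudocounts, filters, scalings, a block, aortas left out, and other peak windows, and 2 were added after the data were seen: the adipocyte marker covariate, and leaving out Control 2 and Prdm16SMKO 3 together. Python 3.11.15, pandas 2.3.3, scipy 1.17.1, and pysam 0.24.0 were used.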

Additional observations from a re-analysis of the deposited data

How the results depend on the processing

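Depth cannot be judged from TPM, and 3 aortas a group with the wide spread of adipocyte genes limit what was detectable. The number of genes called, 168, was 110 without a TPM filter, 392 with quantile normalization, 413 with median-ratio scaling, 275 without mitochondrially encoded genes, 293 with protein-coding genes only, 48 without a trend, and 383 with the adipocyte marker covariate, and 91 to 141 with aortas left out. Of the adipocyte genes, 0 were called except for 1 (*Dio2*) with protein-coding genes only and 1 (*Dio2*) with the covariate, the 0 holding in the other 16 alternatives. Genes with a promoter peak were 9, and 3 (8.82%) in the window from 1 kb upstream to 100 bp downstream. That window held a peak for 9.52% of protein-coding genes and 14.0% of genes tested in the aorta. The deviations of same-numbered aortas from their group means had correlations of −0.0246, −0.07, and −0.00896 over the genes tested. Such values over all genes cannot settle whether these aortas share a litter or batch. The replicate block called 184 genes and 0 adipocyte genes.

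Rescaling by median ratio, which moved the median of all genes from −0.12 to 0.01, turned the log2 fold change to 0.02 for *Ucp1*, 0.0028 for *Ppargc1b*, 0.04 for *Plin5*, 0.07 for *Dgat2*, and 0.06 for *Gpd1*. Quantile normalization gave 0.04 for *Ucp1*, 0.0032 for *Plin5*, 0.09 for *Dgat2*, and 0.11 for *Gpd1*. The covariate gave 0.40 for *Ucp1*, 0.17 for *Cidea*, 0.37 for *Cox7a1*, 0.04 for *Ppargc1b*, 0.06 for *Cebpa*, 0.08 for *Plin1*, 0.24 for *Plin5*, 0.03 for *Pnpla2*, 0.01 for *Fabp4*, 0.02 for *Lpl*, 0.28 for *Dgat2*, and 0.29 for *Gpd1*. The cause of these turns was not tested.

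With aortas left out, 20 of the 33 genes changed sign in at least 1 fit. Their log2 fold changes ranged from −0.91 to 0.55 (*Ucp1*), −0.84 to 0.35 (*Cidea*), −1.07 to 0.59 (*Cox7a1*), −0.96 to 0.70 (*Cox8b*), −0.29 to 0.97 (*Otop1*), −0.41 to 0.14 (*Ppargc1b*), −0.67 to 0.18 (*Cebpa*), −0.71 to 0.22 (*Adipoq*), −0.69 to 0.27 (*Plin1*), −0.71 to 0.43 (*Plin5*), −0.43 to 0.16 (*Pnpla2*), −0.72 to 0.22 (*Fabp4*), −0.79 to 0.21 (*Lpl*), −0.40 to 0.55 (*Cd36*), −0.17 to 0.50 (*Acacb*), −0.15 to 0.67 (*Fasn*), −0.29 to 0.66 (*Elovl6*), −0.39 to 0.57 (*Scd1*), −0.59 to 0.43 (*Dgat2*), and −0.62 to 0.36 (*Gpd1*). The other 13 genes kept their sign in every alternative in which they were fitted, and *Lep* was under the filter when it was set at 1 TPM and when Prdm16SMKO 1 was left out. With aortas left out, *Dio2* and *Plin4* ranged from −0.97 to −0.71 and from −0.61 to −0.31, *Pparg* from 0.20 to 0.84, *Ppargc1a* from 0.14 to 0.55, *Lep* from 0.38 to 1.20, *Ppara* from −0.62 to −0.19, *Retn* from −1.14 to −0.23, *Cfd* from −0.95 to −0.24, *Cidec* from −0.89 to −0.07, *Lipe* from −0.71 to −0.04, and *Acaca* from −0.38 to −0.02. Of the named genes of the other lists, *Nrg4* ranged from 0.24 to 1.43, *Cyp2e1* from −1.45 to −0.56, *Nnat* from −1.25 to −0.07, *Zfp423* from −0.65 to −0.20, *Insig1* from −1.03 to −0.32, and *Ehhadh* from −0.90 to −0.37.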
